A study of Homo sapiens and Mus musculus with 69 samples.

Results

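The 4 Notch receptor genes *NOTCH1*, *NOTCH2*, *NOTCH3* and *NOTCH4* were followed in small cell lung cancer (SCLC) cells, as 4 of the 20516 genes listed for human cells and, under their mouse symbols, as 4 of the 18501 listed for mouse cells. They were taken by symbol. Bulk RNA-Seq had been done on 69 libraries in 23 groups of 3, namely 60 libraries of 4 human SCLC lines and 9 of the mouse line KP1, which lacks *Rb1* and *Trp53*. The 7 groups of H82 were parental cells, cells with a doxycycline-inducible vector for the intracellular domain of human NOTCH1 (N1ICD), and N1ICD cells that also had a *REST* KO or were labelled *STING1* KO, each of the 3 vector lines with and without doxycycline. The 5 groups of H524 were parental cells and 2 vector lines, for N1ICD or for REST, again with and without the drug, and the 3 groups of H69 were parental and N1ICD cells in the same way. In COR-L88 (5 groups) cells received DMSO, the LSD1 inhibitor TAS1440 or TAS1440 plus a γ-secretase inhibitor (GSI), and cells labelled *STING1* KO received DMSO or TAS1440, whereas KP1 (3 groups) received DMSO, TAS1440 or TAS1440 plus a different GSI. For the overexpression experiments, adherent cells were collected after long-term culture with doxycycline, so that induction of the vector and the choice of adherent cells cannot be told apart. No group received a GSI alone, and knockouts had been made with CRISPR-Cas9 in cultured lines. The paper shows single-cell clones for the *REST* and *STING1* knockouts, and the labels name no clone. An effect of a KO and the choice of clone thus cannot be told apart.

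Notch receptors are single-pass membrane proteins. A ligand of the Delta-like or Jagged family on a neighbouring cell opens the receptor to cleavage by ADAM proteases and then by γ-secretase, which frees the intracellular domain to enter the nucleus and, bound to RBPJ and a Mastermind protein, switch on targets such as the *HES* and *HEY* repressor genes. In neuroendocrine lung cells and in most SCLC this pathway is low and opposes the neuroendocrine program, and the Delta-like protein DLL3 acts inside the same cell as an inhibitor of Notch. A vector for the free intracellular domain needs neither ligand nor γ-secretase, whereas a GSI blocks the last cut of all 4 receptors.

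In GRCh37 the human genes lie on 4 chromosomes, each on the minus strand. *NOTCH1* spans chromosome 9, 139388885 to 139440500, *NOTCH2* spans chromosome 1, 120454176 to 120643366, *NOTCH3* spans chromosome 19, 15269849 to 15311806, and *NOTCH4* spans chromosome 6, 32162620 to 32191844. In GRCm38 *Notch1* is on chromosome 2, 26457903 to 26516663, *Notch2* on chromosome 3, 98013527 to 98150361, *Notch3* on chromosome 17, 32120820 to 32166852, and *Notch4* on chromosome 17, 34564268 to 34588503. The reads were summed over whole genes, so that exonic and vector reads of *NOTCH1* carry 1 value and cannot be told apart. A search for runs of 75 identical bases found 317 such windows, 2.79% of the longest *NOTCH2* transcript and all within its first 884 bases, in transcripts of the *NOTCH2NL* copies of this gene, so that some *NOTCH2* reads may have been split. The other 3 receptors shared 0 such windows.

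The 250 bases before the RefSeq start site (GRCh38.p14) are shown for the receptor with the largest rise with N1ICD in H524 and H69, *NOTCH3*, and for the one that stayed below the filter for low values throughout, *NOTCH4*. They run 5′ to 3′ on the minus strand, and capitals mark the GC box GGGCGG or its reverse complement.
NOTCH3 (chr19:15200996-15201245): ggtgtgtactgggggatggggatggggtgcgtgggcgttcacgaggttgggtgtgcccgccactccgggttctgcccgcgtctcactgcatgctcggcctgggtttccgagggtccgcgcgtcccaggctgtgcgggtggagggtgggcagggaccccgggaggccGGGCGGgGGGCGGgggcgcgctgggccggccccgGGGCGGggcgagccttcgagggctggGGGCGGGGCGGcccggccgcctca
NOTCH4 (chr6:32224068-32224317): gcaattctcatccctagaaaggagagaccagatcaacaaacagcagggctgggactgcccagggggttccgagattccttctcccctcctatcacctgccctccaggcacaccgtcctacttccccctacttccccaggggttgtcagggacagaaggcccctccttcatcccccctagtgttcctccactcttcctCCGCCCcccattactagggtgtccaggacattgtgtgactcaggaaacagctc
The *NOTCH3* window held 5 copies of the GC box on the strand shown, counting overlapping ones, where *NOTCH1* held 4 and *NOTCH2* 1, and *NOTCH4* held 1 on the other strand only. Of 35116 RefSeq windows of this length, 42.6% held at least 1 copy on either strand. The GC content was 76% for *NOTCH1*, 72.8% for *NOTCH2* and 78% for *NOTCH3*, against 58% for *NOTCH4* and a median of 58% over all windows. CpG pairs numbered 33, 29 and 28 in *NOTCH1*, *NOTCH2* and *NOTCH3* and 3 in *NOTCH4*, with a median of 11. The letters TGGGAA, the core of the site that RBPJ binds, were found on neither strand in any of the 4 windows and in 20.8% of all windows.

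All levels below are log2(RPKM + 1), and differences between groups are log2 fold changes on that scale, which understates changes of genes near 0. RPKM divides reads by gene length and library size. Fitted differences come from limma, a test across all genes of a line, and a gene was called when its adjusted *P* was under 0.05 and its log2 fold change at least 1 in size. A gene entered a line's fit when 3 or more of that line's libraries reached a level of 1. Genes could thus enter through the group where they were high, and counts of rises among the genes tested are not free of this filter. Nothing in the labels says that the 3 libraries of a group came from separate cultures, so the *P* values measure the spread between these libraries, which may be technical. In bulk RNA, fewer cells of a type and less RNA per cell cannot be told apart. Relative library sizes ranged from 0.698 to 1.52 times the median in the human lines. *REST* mRNA was 4.95 to 5.89 in doxycycline-treated *REST* KO cells and 6.13 to 6.48 without the KO. *STING1* mRNA (listed as *TMEM173*) went against its label, at 1.27 to 2.04 in H82 cells labelled *STING1* KO with doxycycline and 1.07 to 1.17 without the KO, and mRNA need not follow a KO of the protein. In COR-L88 with TAS1440 it was 0.963 to 1.16 in the labelled KO and 2.03 to 2.54 without it, and with DMSO the groups overlapped. Neuroendocrine markers were present in untreated cells of each line, where 6 to 8 of 8 had a mean of at least 1.

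In the 3 parental lines and in DMSO-treated COR-L88 cells, *NOTCH2* was the receptor with the highest level per gene length. It was 3.99, 3.84 and 3.87 in parental H82, where *NOTCH1* was 0.041, 0.0073 and 0.0062. Parental H82 thus stood apart from the other lines by a high *NOTCH2* and a *NOTCH1* close to 0. *NOTCH2* was 1.54, 1.64 and 2.03 in parental H524, 2.13, 2.20 and 1.92 in parental H69 and 2.04, 2.04 and 1.65 in COR-L88 with DMSO, and these 3 groups overlapped. *NOTCH1* was 0.24, 0.23 and 0.73 in parental H524, 0.58, 0.62 and 0.58 in parental H69 and 0.61, 0.74 and 0.63 in COR-L88 with DMSO. *NOTCH3* and *NOTCH4* did not exceed 0.87 in any library of these 4 groups.

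As a share of the summed RPKM of the 4 receptors, *NOTCH2* made up 97.6% in parental H82, 75.1% in parental H524, 73.8% in parental H69 and 59.3% in COR-L88 with DMSO. Across the 20 human groups *NOTCH2* had the highest mean RPKM in 14, *NOTCH1* in 5 and *NOTCH3* in 1. All groups led by *NOTCH1*, except COR-L88 with TAS1440 plus GSI, carried the N1ICD vector, whose reads count as *NOTCH1*. The summed RPKM was 3.15 to 14.3 in these 4 untreated groups and reached 549 in H524 and 887 in H69 with N1ICD and doxycycline, and 994 in H82 when *REST* KO was added. That last mean rested on library 33, since the 3 libraries summed to 517, 683 and 1783, and without it the mean was 600.1, below that of H69. In H69 with N1ICD and doxycycline *NOTCH3* alone made up 68.8% (68.1% to 69.2% in single libraries) and *NOTCH1*, vector included, 28.6%. The gene lengths behind the human RPKM values are not given in the sources used here, and vector reads were divided by the length of the whole gene.

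**Figure D1:**
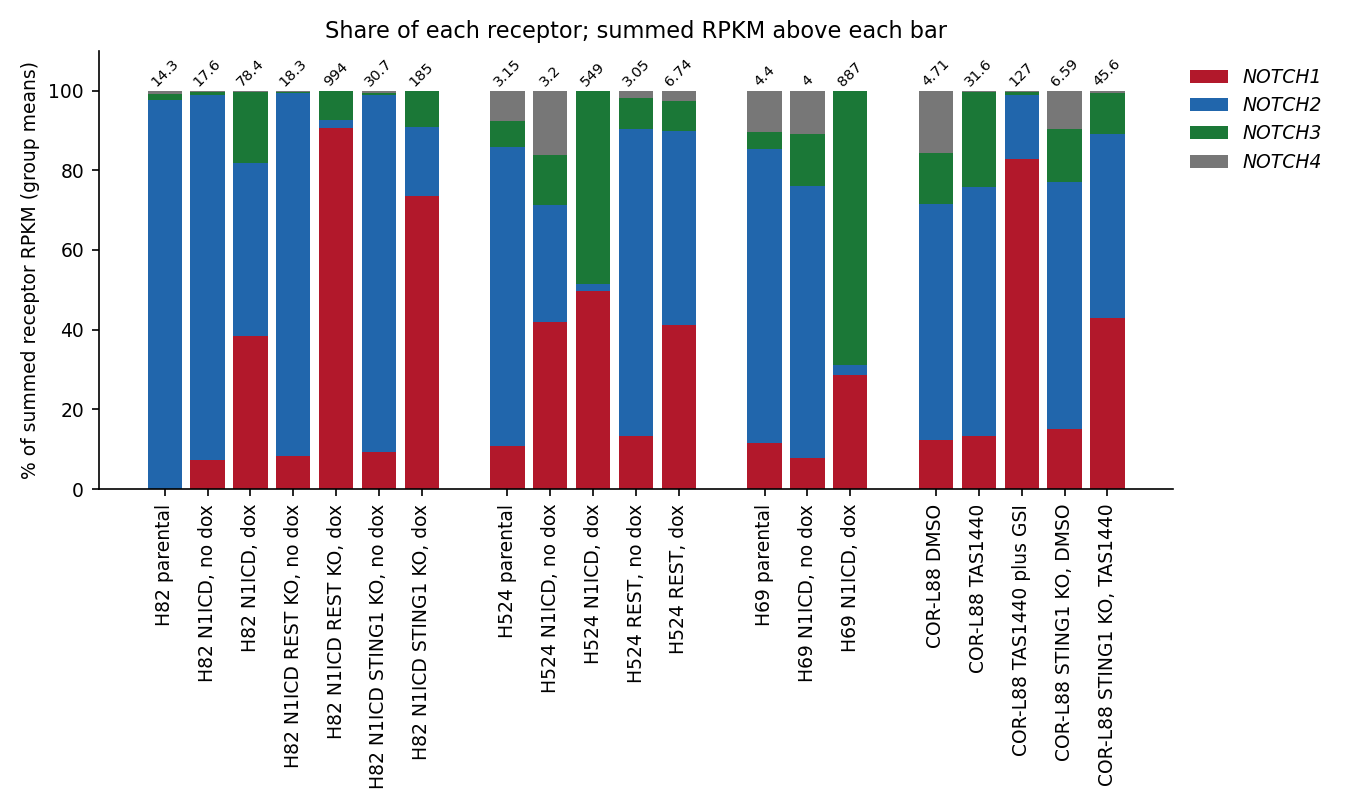
Bars show, for each of the 20 human groups (x axis), the percentage of the summed mean RPKM of the 4 receptors that each receptor made up (y axis, percent), with the summed RPKM written above. *NOTCH2* fills 59.3% to 97.6% of the bars of parental and DMSO-treated cells, and *NOTCH1* and *NOTCH3* fill most of those of H524 and H69 cells with N1ICD and doxycycline.

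**Figure D2:**
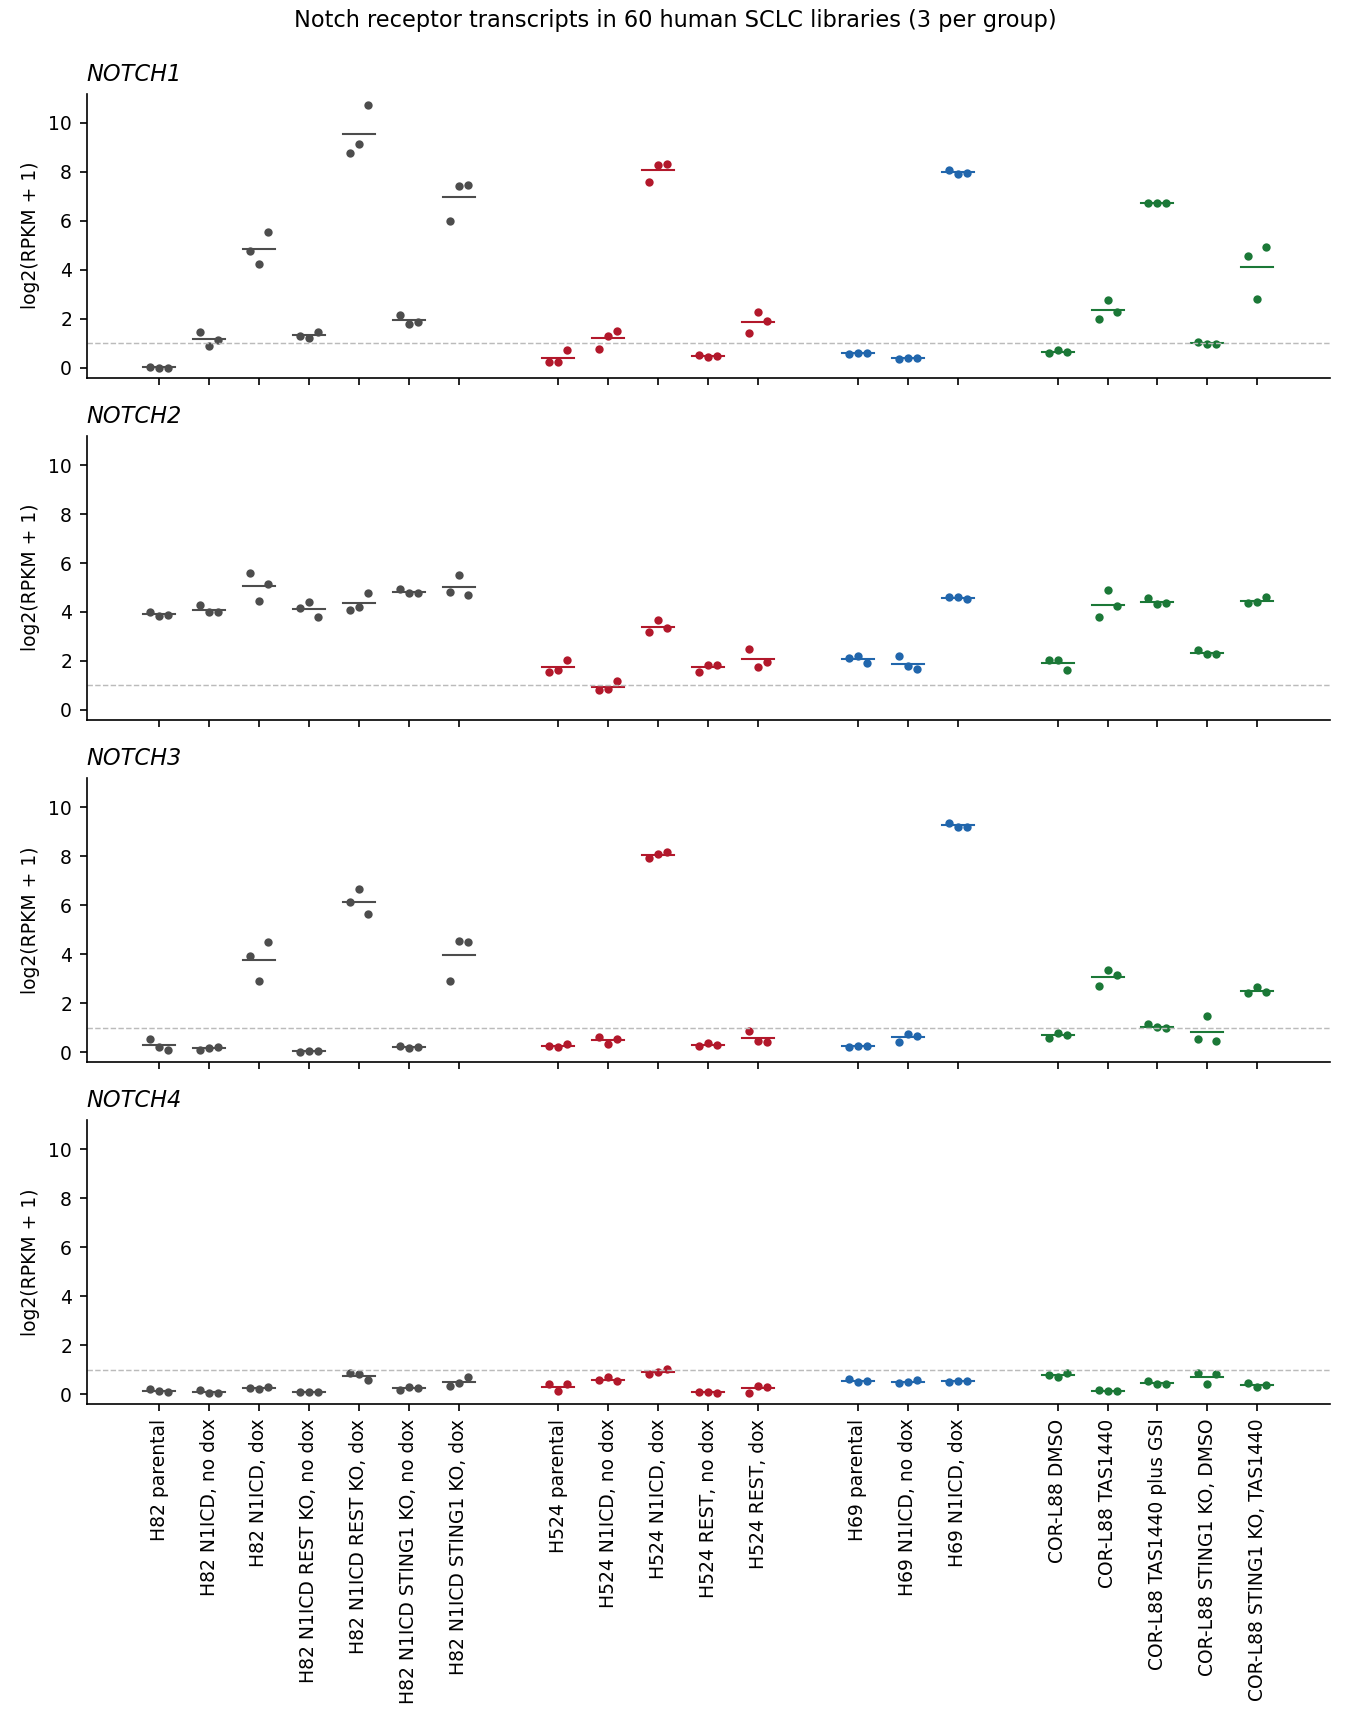
Points are the 3 libraries of each human group and lines their means, in log2(RPKM + 1) on 1 common scale for the 4 receptors, and the dashed line marks the level of 1 used by the filter. *NOTCH1* and *NOTCH3* rise together with N1ICD, *NOTCH1* reaches its highest COR-L88 level with TAS1440 plus GSI (6.71 to 6.75), and *NOTCH4* stays at or below 1.03.

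With doxycycline, *NOTCH1* and *NOTCH3* rose in N1ICD cells of all 3 lines and *NOTCH2* rose in those of H524 and H69. *NOTCH1*, whose values hold the vector, checks the labels. In H82 N1ICD cells it was 1.45, 0.88 and 1.15 before and 4.75, 4.26 and 5.56 after induction. In H524 it went from 0.79, 1.28 and 1.52 to 7.58, 8.29 and 8.31, and in H69 from 0.38, 0.39 and 0.39 to 8.07, 7.93 and 7.97. The groups were apart in each line, with log2 fold changes of 3.70 (SE 0.44), 6.86 (SE 0.27) and 7.60 (SE 0.06), and the vector carries an unknown part of each.

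*NOTCH3*, a receptor best known from vascular smooth muscle and pericytes, was near 0 before induction and is not part of the vector. In H82 it was 0.087, 0.15 and 0.20 without doxycycline and 3.91, 2.89 and 4.51 with it. In H524 it went from 0.61, 0.33 and 0.52 to 7.94, 8.07 and 8.15. In H69 it went from 0.42, 0.73 and 0.66 to 9.36, 9.21 and 9.19. Every library with doxycycline was far above every library without it, and in H69 the level of *NOTCH3* was higher than that of *NOTCH1*. The log2 fold changes were 3.63 (SE 0.38, limma adjusted *P* = 4.32e-07), 7.57 (SE 0.15, adjusted *P* = 2.06e-13) and 8.65 (SE 0.09, adjusted *P* = 2.45e-11).

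*NOTCH2*, the receptor already present in untreated cells, moved less. In H524 N1ICD cells it went from 0.80, 0.84 and 1.18 to 3.17, 3.68 and 3.37, a log2 fold change of 2.46 (SE 0.21, limma adjusted *P* = 8.13e-07). In H69 it went from 2.19, 1.80 and 1.66 to 4.62, 4.61 and 4.53, which is a difference of 2.70 (SE 0.14, limma adjusted *P* = 1.87e-07). In H82, whose *NOTCH2* started at 4.28, 4.00 and 4.01, it was 5.60, 4.44 and 5.12 with doxycycline. There the groups did not overlap, but the log2 fold change of 0.96 (SE 0.26, limma adjusted *P* = 0.00572) was under the size required. Without H82 N1ICD library 4 or doxycycline library 8 it came to 1.05 and 1.27 and passed. The levels with doxycycline (4.44 to 5.60 in H82, 4.53 to 4.62 in H69) overlapped.

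So 2 of the 3 receptors tested were called with N1ICD in H82, where 27.1% of all genes tested were called in either direction, and 3 of 3 in H524 (18.6% of all genes) and in H69 (41.8%). Each of these counts includes *NOTCH1*, whose values hold the induced vector, so that its call follows from the design. In these lines *NOTCH3* reached a level of 1 only with N1ICD and doxycycline. It thus passed the filter through the groups where it was high. *NOTCH4* had too low a level to enter these fits. The difference between the lines was tested directly in 1 fit over the 60 human libraries. The *NOTCH3* response was larger in H524 than in H82 by 3.94 (SE 0.40, limma adjusted *P* = 4.74e-11) and larger in H69 than in H82 by 5.02 (SE 0.40, adjusted *P* = 7.73e-15). The *NOTCH2* response was larger by 1.504 (SE 0.33, adjusted *P* = 0.000286) in H524 and by 1.74 (SE 0.33, adjusted *P* = 1.14e-05) in H69 than in H82. For *NOTCH1* these differences were 3.17 and 3.91. Background shares were 19.7% of genes called for H524 against H82 and 43.1% for H69 against H82. Between H69 and H524 (36.8% of genes called), the *NOTCH3* responses differed by 1.08 (SE 0.40, adjusted *P* = 0.0187), which was not called without H69 library 49 (0.99), after quantile normalization (0.93) or with a pseudocount of 0.1 (0.89), and the differences of *NOTCH1*, called only with that pseudocount (1.67), and of *NOTCH2* were 0.74 (95% interval -0.32 to 1.81) and 0.24 (-0.42 to 0.90).

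**Figure D3:**
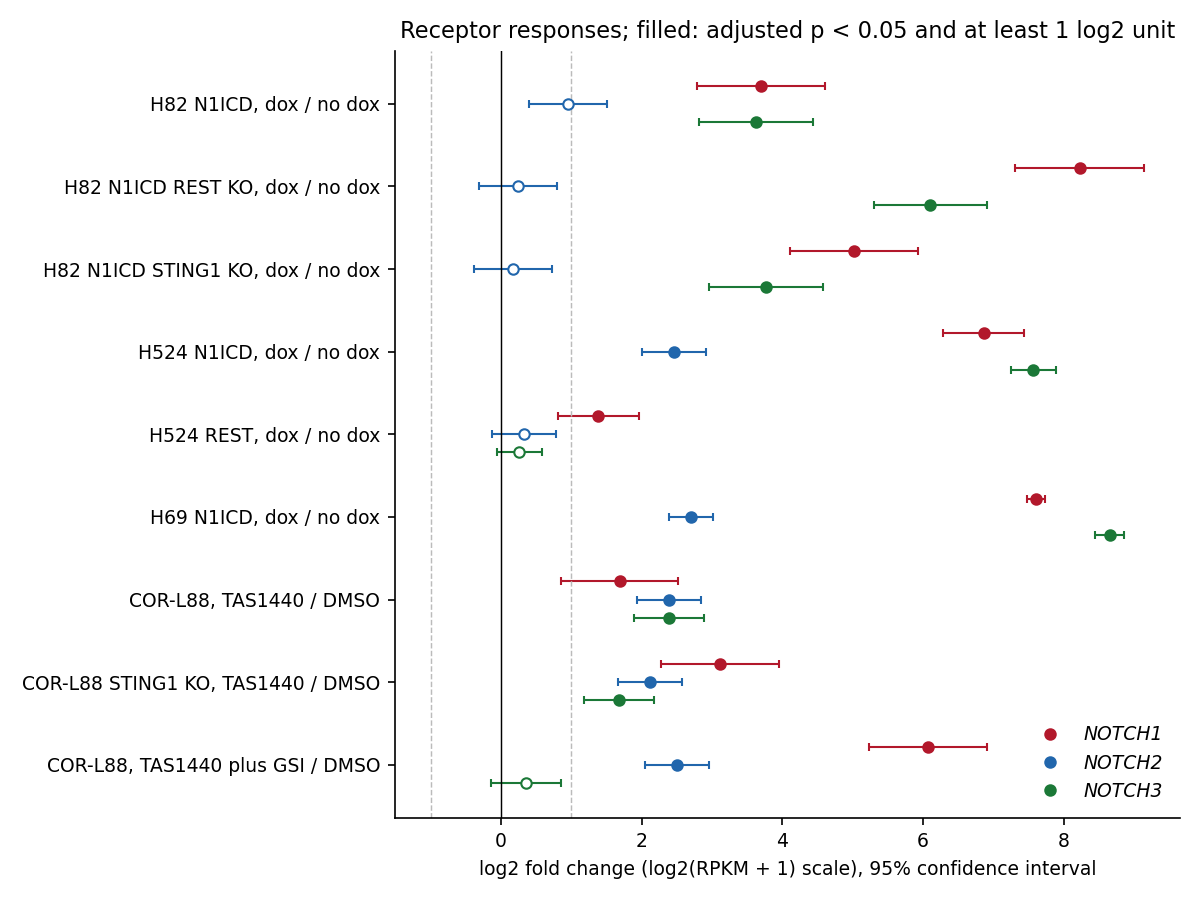
Points are log2 fold changes of *NOTCH1*, *NOTCH2* and *NOTCH3* (x axis, log2(RPKM + 1) scale) with 95% confidence intervals from limma in 9 comparisons (y axis, 3 libraries against 3), and filled points passed the threshold. *NOTCH3* reaches 8.65 with N1ICD in H69 and 0.26 with REST in H524, and the intervals of *NOTCH1* and *NOTCH3* are far apart in COR-L88 with TAS1440 plus GSI.

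Cells that carried the N1ICD vector but received no doxycycline were compared with parental cells for a background. *NOTCH1* was higher in H82 N1ICD cells than in parental cells by 1.14 (SE 0.44, limma adjusted *P* = 0.0910) and every library was above the parental ones, but the difference did not pass (6.41% of genes called). With only the compared groups in the fit it was called (adjusted *P* = 0.0197). On this scale the difference is understated, since the mean RPKM was 0.0128 in parental cells and 1.27 in N1ICD cells. With a pseudocount of 0.1 it was 3.55. Vector reads without doxycycline may be part of it, which was not tested. In H524 the *NOTCH1* difference was 0.80 (SE 0.27, adjusted *P* = 0.0419, 12.1% of genes called) and *NOTCH2* was lower by 0.79 (SE 0.21, adjusted *P* = 0.0150), both under the size required. In H69 *NOTCH1* differed by -0.21 and *NOTCH3* by 0.36 (5.27% of genes called). Thus 0 of 3 receptors were called in each line, against 1 in H82, 2 in H524 and 1 in H69 with a pseudocount of 0.1, and 1 in H524 (*NOTCH1*) without library 22, and limma gave an unadjusted *P* under 0.05 for 1 receptor in H82, 2 in H524 and 2 in H69. In H524 REST cells without doxycycline against parental cells (0.264% of genes called), limma called 0 of 3 receptors, with 0 at an unadjusted *P* under 0.05 and differences of 0.0055 for *NOTCH2*, 0.042 for *NOTCH3* and 0.088 for *NOTCH1*.

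REST, a repressor of neuronal genes, was induced from its own vector in H524. *REST* mRNA was 4.90 to 5.05 without doxycycline and 6.87 to 10.7 with it, so that the induction was uneven between libraries. Of the 3 receptors tested, *NOTCH1* was the one called. *NOTCH1* was 0.53, 0.46 and 0.49 without doxycycline and 1.41, 2.29 and 1.91 with it, without overlap, a log2 fold change of 1.38 (SE 0.27, limma adjusted *P* = 0.0144). This 1 call of 3 receptors, where 1.87% of all genes were called, was lost on leaving out library 35, 36, 38 or 39 (adjusted *P* up to 0.0706). *NOTCH2* overlapped, at 1.56, 1.82 and 1.85 without and 2.47, 1.76 and 1.97 with doxycycline (0.33, adjusted *P* = 0.458). *NOTCH3* was 0.25, 0.37 and 0.31 without and 0.86, 0.45 and 0.41 with doxycycline (0.26, adjusted *P* = 0.378). The response to N1ICD exceeded that to REST by 7.30 for *NOTCH3* (SE 0.21, adjusted *P* = 3.25e-11), by 2.14 for *NOTCH2* (SE 0.30, adjusted *P* = 0.000177) and by 5.48 for *NOTCH1*, and 15.6% of genes were called in that test. With doxycycline, N1ICD cells were above REST cells by 7.48 for *NOTCH3* and by 1.34 for *NOTCH2*. All 3 receptors were called, *NOTCH1* with its vector among them, with 23.8% of all genes.

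In H82, *REST* KO was combined with N1ICD. The receptors without doxycycline did not separate by the KO, with differences of 0.16, 0.03 and -0.11 for *NOTCH1*, *NOTCH2* and *NOTCH3*, 0 of 3 called by limma and 0 at an unadjusted *P* under 0.05 (6.24% of genes called). With doxycycline, *NOTCH3* was 6.13, 6.64 and 5.64 with *REST* KO, above the 3.91, 2.89 and 4.51 of N1ICD cells with *REST*, a log2 fold change of 2.37 (SE 0.38, limma adjusted *P* = 0.000113). *NOTCH1* was 8.75, 9.15 and 10.74 with the KO, the highest level of any group. *NOTCH2* went the other way, at 4.09, 4.22 and 4.79, overlapping the cells without the KO (-0.69, SE 0.26, adjusted *P* = 0.0475, under the size required). So 2 of 3 receptors were called, with 17.6% of all genes. *NOTCH1*, vector included, moved with *NOTCH3* here, and its part in the *NOTCH3* difference was not tested.

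The doxycycline response with *REST* KO was called for 2 of 3 receptors (29.9% of genes called), at 8.23 for *NOTCH1*, vector included, and 6.11 for *NOTCH3* (from 0.0089, 0.039 and 0.056), with 0.24 for *NOTCH2*. It exceeded the response without the KO by 4.53 (SE 0.62, limma adjusted *P* = 4.62e-05) for *NOTCH1* and by 2.48 (SE 0.54, adjusted *P* = 0.00375) for *NOTCH3*, with 12.9% of genes called in that test. The *NOTCH2* responses differed by -0.71 (95% interval -1.499 to 0.071), a call only without library 8 (-1.02).

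In H82 cells labelled *STING1* KO, the doxycycline response was called for *NOTCH1* (5.02, vector included) and *NOTCH3* (3.77, SE 0.38), 2 of 3 receptors with 20.2% of genes called. *NOTCH3* was 0.24, 0.16 and 0.20 without and 2.89, 4.53 and 4.48 with doxycycline, overlapping the induced cells without the KO. *NOTCH2* was 4.94, 4.78 and 4.79 without and 4.83, 5.50 and 4.70 with doxycycline and overlapped (0.17, limma adjusted *P* = 0.638). No receptor response was called as different from that without the KO (0 of 3 by limma, 1 at an unadjusted *P* under 0.05, with 7.12% of genes called), the differences being 1.33 (95% interval 0.03 to 2.62) for *NOTCH1*, -0.78 (-1.57 to 0.00034) for *NOTCH2* and 0.14 (-0.997 to 1.29) for *NOTCH3*. At fixed doxycycline, *NOTCH1*, vector included, was higher in the labelled KO by 2.10 (SE 0.44, adjusted *P* = 0.00113), 1 of 3 called with 16.5% of genes. Without doxycycline limma called 0 of 3, with 14.4% of genes called and 1 receptor at an unadjusted *P* under 0.05, *NOTCH2* (0.74, adjusted *P* = 0.0377).

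Other genes of the pathway moved in both directions with N1ICD. Of 41 such genes besides the receptors, 9 rose and 7 fell of 39 tested in H82, 11 rose and 6 fell of 39 in H524, and 11 rose and 10 fell of 41 in H69. Their median log2 fold changes were 0.33, 0.39 and 0.18, beside -0.0026, -0.018 and 0.083 over all genes tested, of which 27.1%, 18.6% and 41.8% were called. Most targets of Notch rose in each line, 6 of 7 in H82, 7 of 7 in H524 and 6 of 7 in H69. *HES1*, a transcriptional repressor, rose in H82 by 4.18 (SE 0.34, limma adjusted *P* = 1.63e-08), and *HEYL* rose in H524 by 4.57 and in H69 by 6.01. *HES1* was 3.62, 2.93 and 3.27 in H69 without doxycycline and 3.76, 3.82 and 3.79 with it, a difference of 0.52 that was not called. Among the ligands, 2 rose and 2 fell of 4 tested in H82, 1 rose and 3 fell of 5 in H524, and 1 rose and 4 fell of 5 in H69. The Jagged ligand *JAG1* was the one that rose in all 3 lines, by 6.51, 8.01 and 5.10, and *DLL3*, the inhibitory ligand, fell by 3.94, 2.62 and 2.68.

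Genes that process, modify and sort the receptors and their nuclear partners were called in both directions. Over all genes tested, 27.1% were called in H82, 18.6% in H524 and 41.8% in H69. None of the 9 processing genes, among them the ADAM proteases and the subunits of γ-secretase, was called in H82 by limma (4 had an unadjusted *P* under 0.05), 1 rose in H524 and 2 rose and 1 fell in H69. The largest of these changes was that of *FURIN*, the protease that cuts Notch receptors on their way to the surface, by 2.95 in H524 and 3.32 in H69. Fringe and other glycosylation genes had 1 called of 4 tested in H82 (*LFNG*, -1.75), 1 of 4 in H524 (*MFNG*, -1.70) and 3 of 5 in H69 (2 of them lower, *MFNG* at -1.23 the largest). The 8 traffic and degradation genes had 2 lower in H82 (*NUMBL*, -1.77), 1 higher of 7 tested in H524 (*DTX1*, 2.06) and 1 in each direction in H69 (*DTX4*, 2.53). Of 7 nuclear partners, 1 rose and 2 fell in H82 (*MAML3*, -2.67), 1 rose and 2 fell in H524 (*MAML2*, 3.09) and 2 fell in H69 (*MAML3*, -4.46). With REST in H524, where 1.87% of all genes were called, 1 of 39 pathway genes was called. This was *HEY2* (1.72, SE 0.31, limma adjusted *P* = 0.0109), which is a target gene.

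Markers of other cell types moved beside *NOTCH3*. For comparison, 2044 genes rose and 1726 fell of 13903 tested in H82, 1559 rose and 981 fell of 13648 in H524, and 2904 rose and 2771 fell of 13580 in H69. Mural genes, those of pericytes and smooth muscle, rose in 3 of 6 tested in H82 (*PDGFRB*, 4.87), 5 of 5 in H524 (*PDGFRB*, 6.29) and 5 of 6 in H69 (*CSPG4*, 9.43), and the summed RPKM of the list went from 91.4 to 110 without doxycycline to 280 to 460 with it in H82, from 56.5 to 81.8 to 933 to 1373 in H524 and from 6.85 to 11.4 to 1422 to 1537 in H69. Endothelial genes rose in 3 of 3 tested in H82 (*KDR*, 4.39) and in 1 of 2 in H69 (*TEK*, 2.53), where the other fell, and 0 of 6 had a level to be tested in H524. Of the endothelial genes, 0 had a mean of at least 1 in H82 N1ICD cells without doxycycline and 3 with it. In H82 they thus passed the filter mainly through induced cells. The endothelial sum went from 0.319 to 1.06 to 25.2 to 36.6 in H82, from 0.203 to 0.705 to 1.19 to 1.84 in H524 and from 1.73 to 3.66 to 4.15 to 5.33 in H69. *CDH5*, which defines endothelium, was at 0 in the 3 H82 and 3 H69 libraries with doxycycline and at most 0.016 in those of H524. *PTPRC*, the leukocyte marker, was at most 0.024 in these 9 libraries. Neuroendocrine genes fell in 5 of 6 tested in H82, 5 of 7 in H524, where 1 rose, and 7 of 8 in H69, and genes of non-neuroendocrine SCLC such as *AXL*, *VIM* and *YAP1* rose in 6 of 6, 6 of 6 and 5 of 6. In N1ICD cells without doxycycline, 6 of these non-neuroendocrine genes had a mean of at least 1 in H82, 2 in H524 and 2 in H69, against 6 in each line with it. The part of these changes of cell state in the receptor levels was not tested.

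In COR-L88, *NOTCH1*, *NOTCH2* and *NOTCH3* rose with TAS1440, without any vector. *NOTCH2* went from 2.04, 2.04 and 1.65 with DMSO to 3.79, 4.89 and 4.23, a log2 fold change of 2.39 (SE 0.21, limma adjusted *P* = 6.33e-07). *NOTCH3* went from 0.59, 0.77 and 0.70 to 2.71, 3.37 and 3.15, also 2.39 (SE 0.23, adjusted *P* = 1.32e-06). *NOTCH1* went from 0.61, 0.74 and 0.63 to 1.99, 2.79 and 2.26, a log2 fold change of 1.69 (SE 0.39, adjusted *P* = 0.00214). In all 3 the groups were apart, and 3 of 3 receptors were called, with 22.8% of all genes. *NOTCH1* and *NOTCH3* were below 1 in each DMSO library and passed the filter through other groups. *NOTCH2* kept the highest level, at 62.4% of the summed RPKM.

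With the GSI added, the receptors parted. *NOTCH1* was 6.73, 6.71 and 6.75 with TAS1440 plus GSI, far above both other groups and higher than with TAS1440 alone by 4.39 (SE 0.39, limma adjusted *P* = 3.23e-06 for TAS1440 against TAS1440 plus GSI). *NOTCH3* was 1.14, 1.01 and 0.97, below every library with TAS1440 alone, by 2.03 (SE 0.23, adjusted *P* = 1.55e-05), and it did not differ from DMSO beyond the threshold (0.36, 95% interval -0.14 to 0.85). *NOTCH2* was 4.56, 4.33 and 4.35, within the range with TAS1440 alone (difference -0.11, 95% interval -0.56 to 0.34). Thus 2 of 3 receptors were called between TAS1440 with and without the GSI, in opposite directions (14.7% of genes called), and 2 of 3 were called between TAS1440 plus GSI and DMSO (9.02% of genes), *NOTCH1* by 6.07 (SE 0.39, adjusted *P* = 9.71e-08) and *NOTCH2* by 2.50 (SE 0.21, adjusted *P* = 1.37e-06). With the GSI, *NOTCH1* made up 82.8% of the summed receptor RPKM, against 13.3% with TAS1440 alone and 12.3% with DMSO.

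Targets and ligands were read beside this. *HES1* was 4.87, 4.44 and 4.63 with DMSO, 4.93, 4.18 and 4.47 with TAS1440 and 1.97, 2.30 and 2.23 with the GSI added. So *HES1* did not differ beyond the threshold between TAS1440 and DMSO (-0.12, limma adjusted *P* = 0.690) and was lower with the GSI than with either, by 2.36 against TAS1440 alone (SE 0.24, adjusted *P* = 7.90e-06). With the GSI, a high *NOTCH1* thus stood beside a *HES1* below both other groups. *NOTCH3* was there below TAS1440 alone, but each library was above those with DMSO. With TAS1440, 0 of 6 targets rose and 1 fell, *HEY1* (-1.17, a target), and 3 of 5 ligands fell, *DLL4* most (-4.03), with *DLL3* at -3.002. In the other lists the largest changes were those of *APH1B*, a γ-secretase subunit (-1.38), *LFNG*, a Fringe enzyme (-2.65), *NUMBL*, which sorts Notch in the cell (1.71), and *MAML2*, a Mastermind co-activator (2.35). Over all pathway genes, 5 rose and 9 fell of 38 with TAS1440 (median 0.25, and 0.0080 over all genes), where 2011 of all genes tested were higher and 980 lower. Between TAS1440 and TAS1440 plus GSI, 5 pathway genes were higher and 6 lower with TAS1440 alone (median 0.22), among them *JAG1* (1.66) and *LFNG* (-3.29), with 1367 genes higher and 568 lower of all tested. After quantile normalization 56.3% in place of 67.2% of the calls were higher with TAS1440 than with DMSO, and 59.6% in place of 70.6% were higher with TAS1440 than with the GSI added (58.8% with median-centred libraries).

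In COR-L88, markers of other cell types moved as follows. Mural genes rose with TAS1440 in 2 of 3 tested, with a summed RPKM of 5.10 to 8.56 with DMSO, 25.2 to 48.9 with TAS1440 and 9.88 to 14.3 with the GSI added. The endothelial sum was 2.51 to 2.95, 3.19 to 16.4 and 3.80 to 7.23, with *CDH5* at most 0.10. The leukocyte sum was 0.0071 to 0.067, 2.10 to 4.54 and 0.021 to 0.14, where *CD68*, which macrophages and other cells express, rose by 2.04 with TAS1440 and *PTPRC* was at most 0.043. Neuroendocrine genes fell in 6 of 8 with TAS1440 and in 4 of 8 with TAS1440 plus GSI against DMSO. Non-neuroendocrine genes rose in 5 of 5 tested with TAS1440 (*VIM*, 5.81) and in 3 of 5 with TAS1440 plus GSI, and 4 of 5 were higher with TAS1440 than with the GSI added. Over all 13134 genes, 738 rose and 447 fell with TAS1440 plus GSI against DMSO. Their part in the receptor levels was not tested.

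In COR-L88 cells labelled *STING1* KO, 3 of 3 receptors also rose with TAS1440 (16.0% of genes called). *NOTCH1* was 1.06, 0.97 and 0.96 with DMSO and 4.58, 2.82 and 4.93 with TAS1440, a difference of 3.11 (SE 0.39, limma adjusted *P* = 2.44e-05), and the library at 2.82 lay near those without the KO. *NOTCH2* went from 2.45, 2.29 and 2.28 to 4.38, 4.40 and 4.60 (2.12, SE 0.21, limma adjusted *P* = 3.26e-06), and *NOTCH3* from 0.53, 1.49 and 0.47 to 2.42, 2.65 and 2.46 (1.68, SE 0.23, adjusted *P* = 5.30e-05). With TAS1440, *NOTCH1* was higher in the labelled KO than without it by 1.76 (SE 0.39, adjusted *P* = 0.00524), 1 of 3 called with 6.53% of genes, and not called with only these 2 groups in the fit (adjusted *P* = 0.0731). The responses to TAS1440 did not pass as different (0 of 3 by limma, 2 at an unadjusted *P* under 0.05, 4.23% of genes called), with 1.42 (95% interval 0.24 to 2.61) for *NOTCH1*, which was called without library 44 (2.07). With DMSO limma called 0 of 3 receptors, with 0 at an unadjusted *P* under 0.05 (1.47% of genes called).

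In KP1, *Notch2* rose with TAS1440 and was lower again with the GSI added. The KP1 values behaved as if divided by genomic span, introns included, which no source used here states, since the smallest value of a gene followed its span (r = -0.84 over 3252 genes with low values) more closely than its exonic length (r = -0.65). They were not set against human levels, and the estimated reads and exonic values below rest on this reading. *Notch2* was 0.18, 0.20 and 0.11 with DMSO, 2.21, 1.49 and 1.83 with TAS1440 and 0.36, 0.48 and 0.33 with the GSI added. Each TAS1440 library was above all others, with a log2 fold change of 1.68 (SE 0.17, limma adjusted *P* = 5.80e-05) against DMSO and of 1.45 (SE 0.17, adjusted *P* = 0.000158) against TAS1440 plus GSI. As the one receptor with a level to be tested it was called in both, with 18.8% and 16.5% of all genes called, and not between TAS1440 plus GSI and DMSO (0.23, 95% interval -0.15 to 0.60, 1.21% of genes called). That last count of 0 of 1 by limma holds 0 at an unadjusted *P* under 0.05. *Notch2* reached a level of 1 only with TAS1440, so that it passed the filter through the group where it was high. With the GSI added, each *Notch2* library was still above every library with DMSO.

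The value that 1 read is worth could be read from the steps of the low values in each KP1 library, which gave about 14400000 to 17700000 reads per library and the reads behind each receptor, an estimate made after the data had been seen (65.4% to 68.1% of low values lay within 0.05 of a whole read). *Notch2* had 287, 339 and 162 reads with DMSO, 7908, 3926 and 5838 with TAS1440 and 662, 956 and 581 with the GSI added. *Notch1* had 43.5, 30.7 and 20.5 reads with DMSO, 1612, 1411 and 924 with TAS1440 and 177, 345 and 436 with the GSI added. Both were thus well covered with TAS1440, and *Notch1* with the GSI lay between the other groups without overlap. *Notch3* had 5.00, 4.00 and 1.00 reads with DMSO, 169, 18.0 and 159 with TAS1440 and 0, 1.00 and 0 with the GSI added, so that 2 of its TAS1440 libraries held most reads. *Notch4* had 52.0, 66.0 and 39.0 reads with DMSO, 5.00, 3.00 and 16.0 with TAS1440 and 49.0, 64.0 and 41.0 with the GSI added, the reverse of the other 3.

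Without the filter on low values, *Notch1* was called with TAS1440 against DMSO (1.195, SE 0.13, limma adjusted *P* = 0.000779), so that 2 of 4 receptors were called, and was higher than with the GSI added by 0.85 (SE 0.13, adjusted *P* = 0.00398). Re-expressed per exonic length, *Notch1* passed the filter and rose by 2.53 (adjusted *P* = 4.87e-05) and *Notch2* by 3.75 (adjusted *P* = 8.59e-06), both were higher than with the GSI added by 1.54 and 2.77, and *Notch2* had the highest level, at an estimated exonic RPKM of 33.8 ± 11.7 with TAS1440, against 5.75 ± 1.68 for *Notch1* (SD, n = 3). On that scale TAS1440 plus GSI was above DMSO by 0.994 for *Notch1* and 0.971 for *Notch2*, both under the size required. *Hes1* was 0.87, 0.93 and 0.55 with DMSO, 4.64, 5.42 and 5.33 with TAS1440 and 0.95, 0.86 and 1.31 with the GSI added. Like *Notch2* it was highest with TAS1440, but its levels with DMSO and with the GSI added overlapped. *Hes1* rose by 4.34 (SE 0.23, adjusted *P* = 2.08e-06), *Dll4* fell by 2.43 and *Kdm1a*, the gene of LSD1, by 1.62, and 2 of 30 pathway genes rose and 10 fell (median -0.0093, and 0.021 over all genes, of which 751 were higher and 801 lower). *Furin* rose by 1.56, whereas *Lfng* fell by 2.33 and *Dtx1*, a ubiquitin ligase of Notch, by 1.83. Between TAS1440 plus GSI and DMSO limma called 0 of the 30, with 2 at an unadjusted *P* under 0.05. Neuroendocrine genes fell in 6 of 6 tested and non-neuroendocrine genes rose in 6 of 6 with TAS1440, and limma called 0 of 6 in both lists with the GSI added against DMSO (0 and 2 at an unadjusted *P* under 0.05). Of the non-neuroendocrine genes, 0 had a mean of at least 1 with DMSO, 1 with the GSI added and 6 with TAS1440. They thus passed the filter mainly through the TAS1440 libraries, so that their count of rises is not free of the filter. The summed RPKM of mural genes was 8.94 to 18.0 with DMSO, 7.73 to 14.6 with TAS1440 and 2.50 to 6.41 with the GSI added. *Cdh5* was at 0 in all 9 libraries, and the part of these markers in the receptor levels was not tested.

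The COR-L88 and KP1 responses were set side by side for *NOTCH1*. The GSI went with a *NOTCH1* level higher by 4.39 in COR-L88, in 3 of 3 libraries above all with TAS1440 alone, and with a *Notch1* level lower by 0.85 in KP1, in 3 of 3 libraries below all with TAS1440 alone. For *NOTCH2*, TAS1440 alone was above TAS1440 plus GSI by 1.45 in KP1, and in COR-L88 the interval of that difference reached from -0.56 to 0.34. The 2 lines differ in species, inhibitor and table, and no test spans them.

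**Figure D4:**
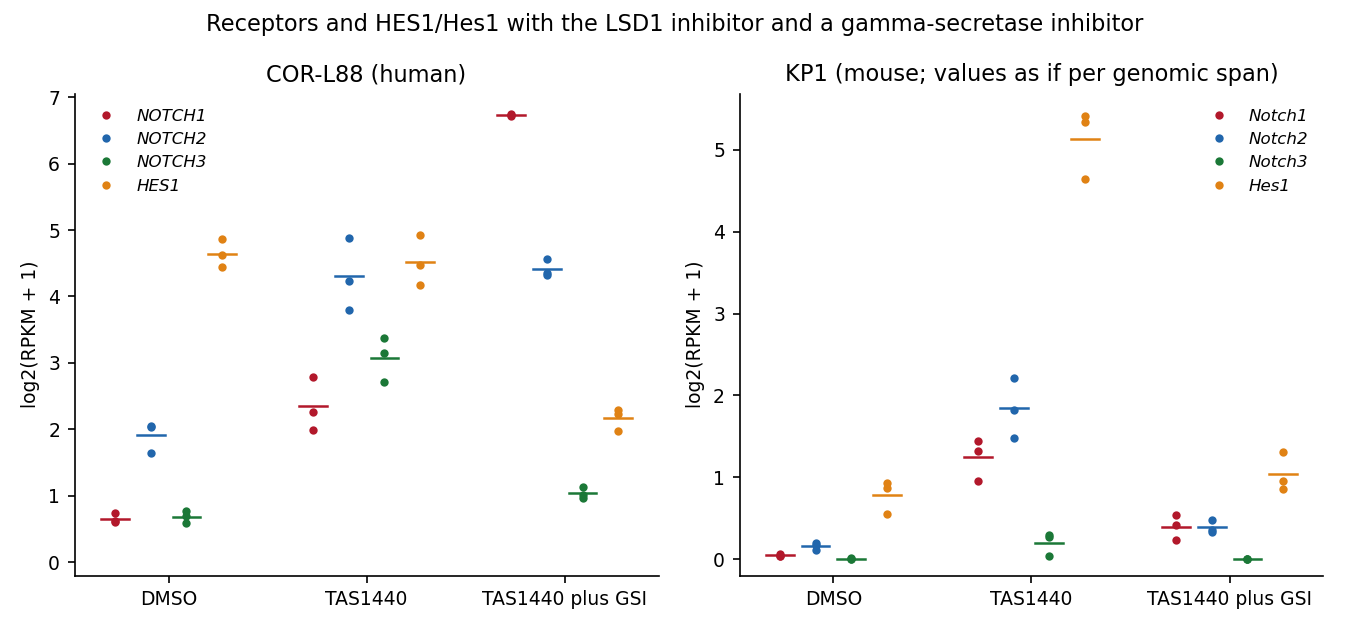
Points are single libraries and lines means of 3 for the receptors and *HES1* or *Hes1* in log2(RPKM + 1), with COR-L88 on the left and KP1, whose values behave as if divided by genomic span, on the right on its own scale. *NOTCH1* reaches 6.71 to 6.75 with TAS1440 plus GSI in COR-L88, where *HES1* is lowest, whereas *Notch1*, *Notch2* and *Hes1* are highest with TAS1440 alone in KP1.

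*NOTCH4*, a receptor of endothelium, entered no fit. Its levels in the 60 human libraries did not exceed 1.03, reached in H524 with N1ICD and doxycycline (0.83, 0.90 and 1.03). It moved within that range. In COR-L88 it was 0.79, 0.72 and 0.87 with DMSO, 0.17, 0.13 and 0.14 with TAS1440 and 0.52, 0.40 and 0.41 with the GSI added, 3 groups that did not overlap. Without the filter, the first difference was -0.65 (SE 0.10, limma adjusted *P* = 0.000215), opposite in sign to the other 3 receptors and under the size required. In H82 with *REST* KO it was 0.095, 0.095 and 0.10 without doxycycline and 0.86, 0.81 and 0.60 with it (0.66, SE 0.08, adjusted *P* = 3.36e-06), and in H69 it was 0.47, 0.52 and 0.58 without and 0.49, 0.55 and 0.56 with doxycycline. In no comparison did *NOTCH4* reach a difference of 1 on this scale, on which its group means left no room for a fall of that size. In COR-L88 its mean RPKM was 0.732 with DMSO, 0.106 with TAS1440 and 0.363 with the GSI added.

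The groups can be put in order by each receptor. For *NOTCH1* the order led from H82 with *REST* KO and doxycycline (mean 9.55) over H524 and H69 with doxycycline (8.06 and 7.99, which overlapped) to parental H82 (0.018), and 7 of the steps between neighbours in this order of 20 groups were free of overlap. For *NOTCH2* it led from H82 with doxycycline (5.05) to H524 N1ICD cells without it (0.94), with 6 such steps. For *NOTCH3* it led from H69 (9.25) over H524 (8.05) and H82 with *REST* KO (6.14), all 3 with doxycycline and apart from each other, to H82 with *REST* KO without doxycycline (0.035), with 6 such steps. For *NOTCH4* 1 step was free of overlap.

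Over the 20 group means, the genes most like each receptor were looked for among 15888 genes by Pearson's r, given as a description, since groups share their line and treatment. *NOTCH3* was followed most closely by *IGFL1* (0.98), *OLFML2A* (0.98) and *LAMA4* (0.97), a laminin chain of vessel basement membranes, and the same 3 led after the mean of each line was removed. *NOTCH1* was followed by *ARHGEF17* (0.94), *TENC1* (0.91) and *SLC6A12* (0.89), and with line means removed by *ARHGEF17* (0.97), *COL18A1* (0.95) and *BCL6* (0.94). *NOTCH2* was followed by *NBPF10* (0.93), *YAP1* (0.91), an effector of the Hippo pathway, and *NOTCH2NL* (0.90), and with line means removed by *YAP1* (0.93), *NOTCH2NL* (0.93) and *NQO2* (0.92). *NOTCH2NL* shares sequence with *NOTCH2*, and *NBPF10* belongs to a family of near-identical copies, so that reads of both are uncertain. Between the receptors, r was 0.86 for *NOTCH1* and *NOTCH3*, 0.60 for *NOTCH1* and *NOTCH2* and 0.45 for *NOTCH2* and *NOTCH3*. The *NOTCH1* means hold vector reads in the N1ICD groups, so that each r with *NOTCH1* describes gene and vector together.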

How the data were processed

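Total polyA RNA of cultured human and mouse SCLC lines had been sequenced on an Illumina NovaSeq after a stranded mRNA preparation. Per the labels and the methods of the study, Cutadapt, STAR and RSEM were used for trimming, alignment (hg19 for human cells, with mm10 also named) and quantification, with values scaled by TMM factors of edgeR to RPKM, and the authors deposited log2 values of RPKM + 1, in 1 table for the 60 human libraries and a separately normalized one for the 9 KP1 libraries. Tool versions and gene lengths are not given in the sources used here. Depth is known for the human libraries only relative to each other, so that no interval of counting error can be given.

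Groups were taken from the labels, 3 libraries each. Each line was fitted on its own with limma 3.58.1 in R 4.3.3 (1 mean per group, moderated variances with a trend, two-sided tests) keeping the genes for which 3 or more of its libraries reached a level of 1. Benjamini-Hochberg adjustment ran over all genes of a fit, and calls needed an adjusted *P* under 0.05 and a log2 fold change of at least 1 in size. Differences of the N1ICD response between lines came from 1 fit of all 60 human libraries. The steps were tested on simulated data. All 4 receptors were named in every group. Other pathway genes were named where they had the largest called change of their list in a main comparison, or as *HES1*, *DLL3* or *REST* beside a receptor; the markers, and *JAG1* and *LFNG* between TAS1440 with and without the GSI, were chosen after their values were seen. The members, lists and tests were chosen with earlier results of these data known. Sequences are from RefSeq (GRCh38.p14), in which all 4 human receptors matched, and positions from GENCODE annotations of GRCh37 and GRCm38. Libraries of a group had no identical values beyond zeros (r = 0.930 to 0.996). Python 3.11.15, numpy 2.4.6, pandas 2.3.3 and matplotlib 3.10.9 were used for levels and figures. Alternatives were to use no filter, to fit the compared groups alone, to drop the variance trend, to leave out each library, and to change the scale (quantile or median centring, a pseudocount of 0.1); values per exonic length and estimated reads of KP1 were added after the data were seen.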

Additional observations from a re-analysis of the deposited data

Results flagged for a closer look

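Receptor responses that differed between groups by a test of the difference itself were the following, as differences of log2 fold changes (limma, adjusted *P* under 0.05). In H82 the response to doxycycline was larger with *REST* KO than without it by 4.53 for *NOTCH1* and by 2.48 for *NOTCH3*. In H524 the response to N1ICD exceeded that to REST by 5.48 for *NOTCH1*, 2.14 for *NOTCH2* and 7.30 for *NOTCH3*. The N1ICD response was larger in H524 than in H82 by 3.17 for *NOTCH1*, 1.504 for *NOTCH2* and 3.94 for *NOTCH3*, and larger in H69 than in H82 by 3.91, 1.74 and 5.02. Between H69 and H524 it differed by 1.08 for *NOTCH3*. The vector is part of each *NOTCH1* value, and how much vector a line made was not measured apart from it.

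Between TAS1440 and TAS1440 plus GSI, *NOTCH1* differed by -4.39 in COR-L88 and *Notch1* by 0.85 in KP1 (without the filter), with every library of each line on its own side. The difference between the lines was not tested, since the tables were normalized separately and the 2 inhibitors differ.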

How the results depend on the processing

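No reversal of a called receptor occurred under any alternative tried. Counts of receptors called changed as follows. With a pseudocount of 0.1, N1ICD cells without doxycycline against parental cells gave 1 in H82, 2 in H524 and 1 in H69 in place of 0, and with only the compared groups 1 in H82. In H524 REST cells with doxycycline, leaving out 1 library gave 0 to 1 in place of 1, and in H524 N1ICD cells without doxycycline against parental cells 0 to 1 in place of 0. The label *STING1* KO against none with TAS1440 in COR-L88 gave 0 with only the compared groups, and leaving out 1 library gave 0 to 1 for the difference of the TAS1440 responses there. H69 against H524 gave 0 after quantile normalization and 0 to 1 on leaving out 1 library. *NOTCH2* was also called, for 3 in place of 2 receptors, in H82 N1ICD cells with doxycycline without library 4 or 8 and in the difference of responses by *REST* KO without library 8. KP1 with TAS1440 against DMSO gave 2 without the filter and 2 per exonic length in place of 1, and TAS1440 against TAS1440 plus GSI gave 2 per exonic length. Causes were not tested, except that the filter removes *Notch1* from the KP1 fits. No paired analysis was possible because the library numbers run through each table and no groups compared share any. Quantile normalization moved the median of all genes from 0.0080 to -0.14 for TAS1440 in COR-L88, from -0.018 to -0.12 for N1ICD in H524, from -0.0091 to -0.12 for doxycycline with *REST* KO in H82, from 0.041 to -0.086 for TAS1440 against TAS1440 plus GSI in COR-L88 and, for H69 against H524 and against H82, from 0.026 to 0.11 and from 0.024 to 0.11, with the signs of the called receptor changes kept. The number of all genes called moved by more than 1.5 times in the following comparisons. It went from 255 to 112 to 137 for REST in H524 without library 35, 36, 38 or 39, from 891 to 321 with only the compared groups and to 1584 without library 4 for H82 vector cells against parental cells, and from 1651 to 548 with only the compared groups for those of H524. It went from 36 to 17 to 95 for H524 REST cells against parental cells, from 867 to 1311 with a pseudocount of 0.1 for *REST* KO without doxycycline, from 193 to 113 to 372 for the label *STING1* KO with DMSO in COR-L88 and from 556 to 335 to 911 for the difference of the TAS1440 responses there (911 without library 44). In KP1 it went from 100 to 49 to 58 without library 1, 2 or 8 for TAS1440 plus GSI against DMSO, and per exonic length to 288 there, from 1552 to 3260 for TAS1440 against DMSO and from 1363 to 2922 for TAS1440 against TAS1440 plus GSI. Levels near 0 limit *NOTCH4*, *Notch3* and *Notch4*, for which this scale cannot show a fall of 1.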
